A study of Solanum lycopersicum with 12 samples.

Results

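The genes described here are 100 of the 24215 in the table for a yellow and a red tomato (Solanum lycopersicum). In both tomatoes their transcript level was higher at maturity than at color break by at least a set limit. The study compared the fruits of these closely related tomatoes for flavor and color. The groups were fruits of yellow tomato No. 19 and of red tomato No. 20, each taken at color break, the onset of visible ripening, 40 days after flowering, and at maturity, 55 days after flowering. Each of these 4 groups held 3 libraries, 12 in all. No allele, treatment or growing condition is given for the groups beyond the number, the fruit color and the stage. It is also not said whether the fruits held seeds or whether replicates came from separate plants, so the spread between libraries may be technical.

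The genes were chosen by their measured values. A gene had to reach 1 FPKM (a read level scaled to gene length and library size) in at least 3 of the 12 libraries, which 15974 genes did. In both tomatoes the mean of log2(FPKM + 1) over the 3 maturity libraries then had to exceed the mean at color break by at least 0.8. The stage changes are therefore given as a description, with no test. Of the 15974 genes, 1.38% reached this rise in the yellow tomato, 5.61% in the red one and 0.626% in both. The 100 genes were 45.5% of the 220 that reached it in yellow and 11.2% of the 896 that reached it in red.

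Ripening of the tomato is driven by the gas ethylene together with a small set of transcription factors, among them RIN and NOR, and abscisic acid takes part in it. Chlorophyll is broken down, carotenoids are made, pectin and other wall polymers are degraded, and acids, sugars and aroma compounds change. Much of that program is already switched on at color break, and the time after it covers late ripening, when defence proteins, lipid turnover and respiration of the fruit also change.

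Genes known for ripening were looked up among the 100. None of 13 ripening regulators, 17 ethylene genes, 13 carotenoid genes, 7 softening genes and 8 aroma genes that passed the filter was a member, 0 of 58 in all, where 0.626% of filtered genes were members, so that a list of this size says little. The nearest was TAG1 (Solyc02g071730), a MADS-box gene of the AGAMOUS kind, with a change of 0.71 in yellow and 0.80 in red. ACS4 (Solyc05g050010), an ACC synthase of ethylene synthesis, came next with changes of 0.59 and 0.52. LOXB (Solyc01g099190), a lipoxygenase, which starts the oxidation of fatty acids, had changes of -0.22 in yellow and 1.19 in red. ACS4, LOXB and the genes of other lists are named here after their values were seen.

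The change was larger in the red tomato for 82 of the 100 genes and larger in the yellow one for 18, and it was larger in red for 61.3% of all filtered genes. In the log2 fold changes of edgeR, which rest on counts scaled by TMM, the same tally was 67 and 33, beside 49.6% of all filtered genes, so that 15 of the 82 turned round. In yellow the change ran from 0.80 to 3.86 with a median of 1.11, and in red from 0.80 to 5.66 with a median of 1.51, both on the log2(FPKM + 1) scale, as was the tally of 82. Over all 15974 genes the median change was 0.02 in yellow and 0.14 in red. The red change exceeded the yellow one by at least 1 in 17 genes, and the reverse held in 1 gene, Solyc08g080650. Changes of at least 2 were seen in 7 genes in yellow, 24 in red and 5 in both. At the limit itself, the members with the smallest changes were the histone H4 gene Solyc06g075930 (0.85 in yellow, 0.80 in red) and Solyc01g010150 (0.80 and 1.17). Just outside were Solyc11g069790 (0.798 in yellow, 0.978 in red) and the expansin gene Solyc02g088100 (0.858 and 0.797), whose product loosens the cell wall.

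**Figure D1:**
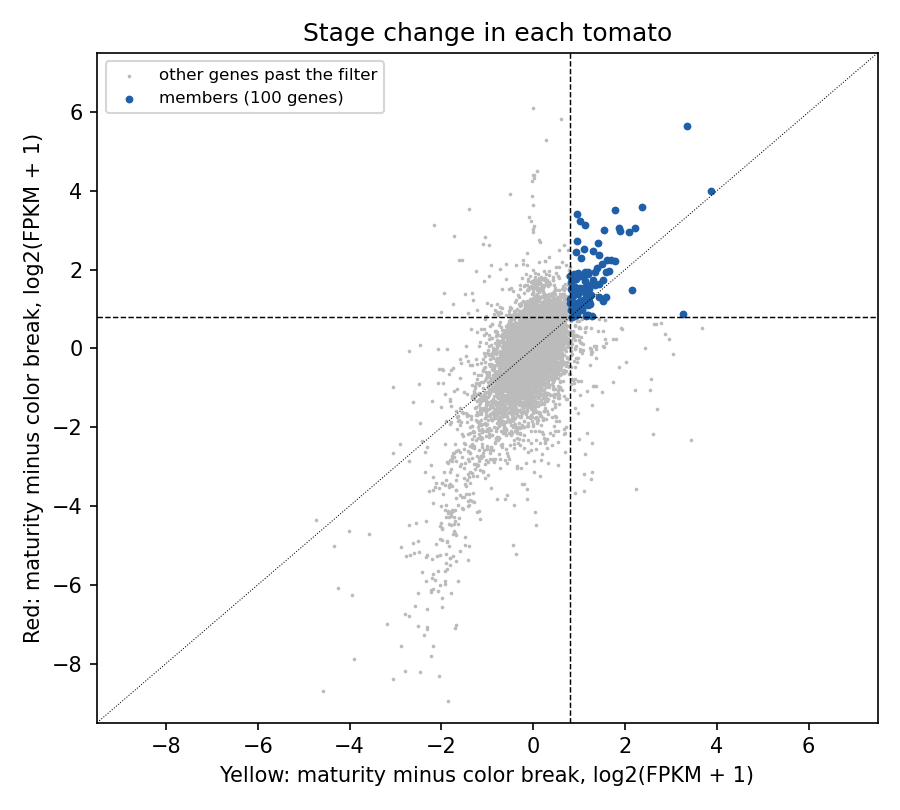
Change from color break to maturity on the log2(FPKM + 1) scale in the yellow tomato (x axis) and the red tomato (y axis), 1 point per gene of the 15974 past the filter, with the 100 members in blue. Dashed lines mark the limit of 0.8 that defines the members, and the dotted line marks equal change; 82 members lie above it.

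Levels of the 100 genes were mostly low at color break. The median over genes of the group mean was 3.29 FPKM in yellow and 3.95 in red fruit at color break, and 8.7 and 15.2 FPKM at maturity. Over both tomatoes together, 58 genes were under 5 FPKM at color break and 21 at maturity, while 13 reached 100 FPKM at maturity against 4 at color break. The summed level of the 100 genes per library was 1688 to 1716 FPKM in yellow and 2226 to 2241 in red fruit at color break, and 5308 to 5384 in yellow and 6631 to 6855 in red fruit at maturity. Because the libraries came from fruits and not from single cells, more RNA per cell and more cells of a type cannot be told apart. The libraries held 50963462 to 60854667 counts, and every pair of replicates differed by more than counting noise (5.37 to 34.9 in chi-square for each degree of freedom). In red at maturity, replicate 1 was the lowest of its group for 56 of the 100 genes and the highest for 24, and it lay above every red color break library for 98. The genes were chosen by the means of these libraries, so such a separation is favored in advance and is no check of the rise.

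Lists of genes that mark other tissues, drawn from words of the description alone, were set beside the members. Only 22 of the 100 members have a description, so the other members could not enter these lists. Among these others were Solyc07g006890, placed by its pathway entry in cutin, suberine and wax, and Solyc03g119210, annotated for lipid transport. Their changes were 1.53 in yellow and 3.00 in red, and 1.65 and 1.97, so the surface list does not hold every gene of that kind. A change of -0.8 or less was found in 3.86% of filtered genes in yellow, 9.38% in red and 3.03% in both. None of 5 seed markers, 21 markers of green tissue and 7 of the fruit surface that passed the filter was a member. Such a change was found in 5 of the 5 seed markers and 6 of the 7 surface markers in each tomato, and in 9 of the 21 green tissue markers in yellow and 15 in red, while 2 green tissue markers had a change of at least 0.8 in red. The summed level of the seed markers per library was 514 to 558 FPKM at color break and 91.4 to 100.2 at maturity in yellow, and 874 to 929 and 2.64 to 21.6 in red. The surface markers summed to 1133 to 1326 FPKM and 103 to 109 in yellow, and to 1554 to 1652 and 4.84 to 34.9 in red, in the same order. The green tissue markers summed to 642 to 701 FPKM and 436 to 450.5 in yellow, and to 956 to 989 and 158 to 223 in red. Their part in the levels of the 100 genes was not tested.

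Annotation in the table reached 75 of the 100 genes, 22 of them with a description, and 25 had neither a description nor a gene ontology (GO) term, against 23.5% of all genes past the filter. In the groups set from words of the annotation, 13 members were transporters (8.0% of all filtered genes) and 7 were oxidoreductases (4.73%). A word for lipids, fatty acids or acyl groups was found in 8 members (3.83%). Of these 8, Solyc02g064690 and Solyc08g075210 were taken in only by an acyltransferase term that names no lipid. Defence (1.73%), transcription (3.33%), glycosyl transfer (1.63%) and protein turnover (5.25%) held 4 members each. There were 3 kinases (5.2%), 3 genes of stress and hormones (1.85%), 2 of RNA and ribosomes (5.92%), 1 of the cell wall (1.33%) and 0 of 122 sugar genes (0.764%). A gene can stand in more than 1 group.

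Lipid genes held the largest mean change of all members. Solyc12g055730 (chromosome 12, 62671949 to 62676626, plus strand), annotated by GO as a triglyceride lipase, which splits storage fat into fatty acids, stood at 18.1, 20.1 and 18.2 FPKM in yellow and 10.7, 12.1 and 11.6 in red fruit at color break. At maturity it stood at 200, 199 and 199 FPKM in yellow and 590, 636 and 657 in red. The groups of libraries did not overlap at either stage, with red below yellow at color break and above it at maturity. In edgeR's fit of the counts the change was 10.4-fold in yellow (log2 fold change 3.38 ± 0.06, SE) and 49-fold in red (5.62 ± 0.06). FAD3 (Solyc06g007130), named after the Arabidopsis desaturase that makes linolenic acid, was at 0.837 ± 0.158 FPKM (SD, n = 3) in yellow and 1.32 ± 0.0928 in red fruit at color break, and at 3.19 ± 0.184 and 7.93 ± 1.08 at maturity. Solyc03g079880, with GO terms for fatty acid binding and systemic acquired resistance, was close to undetected at color break, at 0, 0.192 and 0 FPKM in yellow and 0.099, 0.0496 and 0 in red. It was at 2.46, 2.88 and 2.59 FPKM in yellow and 12.3, 11 and 9.74 in red fruit at maturity. Solyc03g119210, annotated for lipid transport, was higher at maturity by 1.65 in yellow and 1.97 in red on the log2(FPKM + 1) scale. Later stage changes given as plain numbers, not as folds or log2 fold changes, are on this scale too. The 3-ketoacyl-CoA synthase gene Solyc09g065780, of the family that lengthens very long fatty acids, was higher at maturity by 1.44 and 1.64.

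Defence genes included the member with the highest level at maturity. Solyc08g080650 (chromosome 8, 64002840 to 64005894, plus strand), annotated for defence against fungi, stood at 144, 163 and 157 FPKM in yellow at color break and at 1449, 1511 and 1502 at maturity. In red it stood at 563, 554 and 572 FPKM at color break and 1014, 1046 and 1019 at maturity. Red was thus above yellow at color break and below it at maturity, and the change was 9.48-fold in yellow and 1.63-fold in red. CHI9 (Solyc10g055810, chromosome 10, 57363714 to 57364923, minus strand), a basic endochitinase, which cuts the chitin of fungal walls, was at 0.94, 1.41 and 1.44 FPKM in yellow and 3.65, 5.67 and 4.67 in red fruit at color break. At maturity it was at 6.19, 5.58 and 5.44 FPKM in yellow and 20.5, 20.4 and 20.7 in red. Its changes of 4.46-fold in yellow and 3.94-fold in red were close to each other, while red was above yellow at both stages. The beta-1,3-glucanase gene Solyc10g079860, whose enzymes cut the glucan of callose and of fungal walls, was higher at maturity by 1.59 in yellow and 1.30 in red. AGO2A2 (Solyc02g069260), an Argonaute of RNA silencing against viruses, was at 7.92 ± 0.398 FPKM in yellow and 9.46 ± 0.267 in red fruit at color break and at 18.1 ± 0.249 and 37.2 ± 3.04 at maturity. CHI9 was also the single member with a cell wall word.

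Oxidoreductases and enzymes of primary metabolism were members in both the mitochondrion and the cytosol. Solyc02g038740 (chromosome 2, 31968485 to 31971196, minus strand), annotated as hydroxymethylglutaryl-CoA reductase, which makes mevalonate for sterols and other isoprenoids of the cytosol, stood at 107, 112 and 114 FPKM in yellow and 56.6, 55.1 and 53.4 in red fruit at color break. At maturity it was at 235, 250 and 243 FPKM in yellow and 446, 511 and 505 in red. Red was below yellow at the first stage and above it at the second, without overlap, and the change was 2.15-fold in yellow and 7.92-fold in red. The proline dehydrogenase gene Solyc02g089620, whose enzyme starts proline breakdown in mitochondria, was at 13.6, 13.1 and 14 FPKM in yellow and 12.9, 12.6 and 10.6 in red fruit at color break, and at 41.2, 40 and 39.9 and 54.5, 55.9 and 59.9 at maturity. Proline dehydrogenase was thus higher at maturity by 2.92-fold in yellow and 4.21-fold in red. Solyc08g075540, annotated as an alternative oxidase, which passes electrons from ubiquinol to oxygen in mitochondria without pumping protons, was at 1.02, 1.09 and 1.01 FPKM in yellow and 5.63, 5.46 and 5.06 in red fruit at color break. At maturity it was at 2.65, 3.03 and 2.85 FPKM in yellow and 20.6, 20.7 and 20.9 in red. Solyc07g053830, a mitochondrial carrier that exchanges ADP and ATP, was at 50.9 ± 1.8 and 67.1 ± 1.19 FPKM at color break and at 101 ± 0.27 and 182 ± 3.83 at maturity, in yellow and red. On the log2(FPKM + 1) scale, the phosphoenolpyruvate carboxylase gene Solyc07g062530, which feeds carbon into malate, was higher at maturity by 0.94 in yellow and 0.97 in red. The catalase gene Solyc01g100640, which removes hydrogen peroxide, was higher by 0.84 and 1.47 on the same scale. The glutamine synthetase gene Solyc04g014510, which fixes ammonium, was higher at maturity by 0.94 and 1.48. Solyc07g006890, annotated by GO as a monooxygenase and placed by its KEGG entry in the pathway for cutin, suberine and wax, was at 4.75 ± 0.294 FPKM in yellow and 5.17 ± 0.682 in red fruit at color break and at 15.6 ± 0.93 and 48.5 ± 7.02 at maturity.

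**Figure D2:**
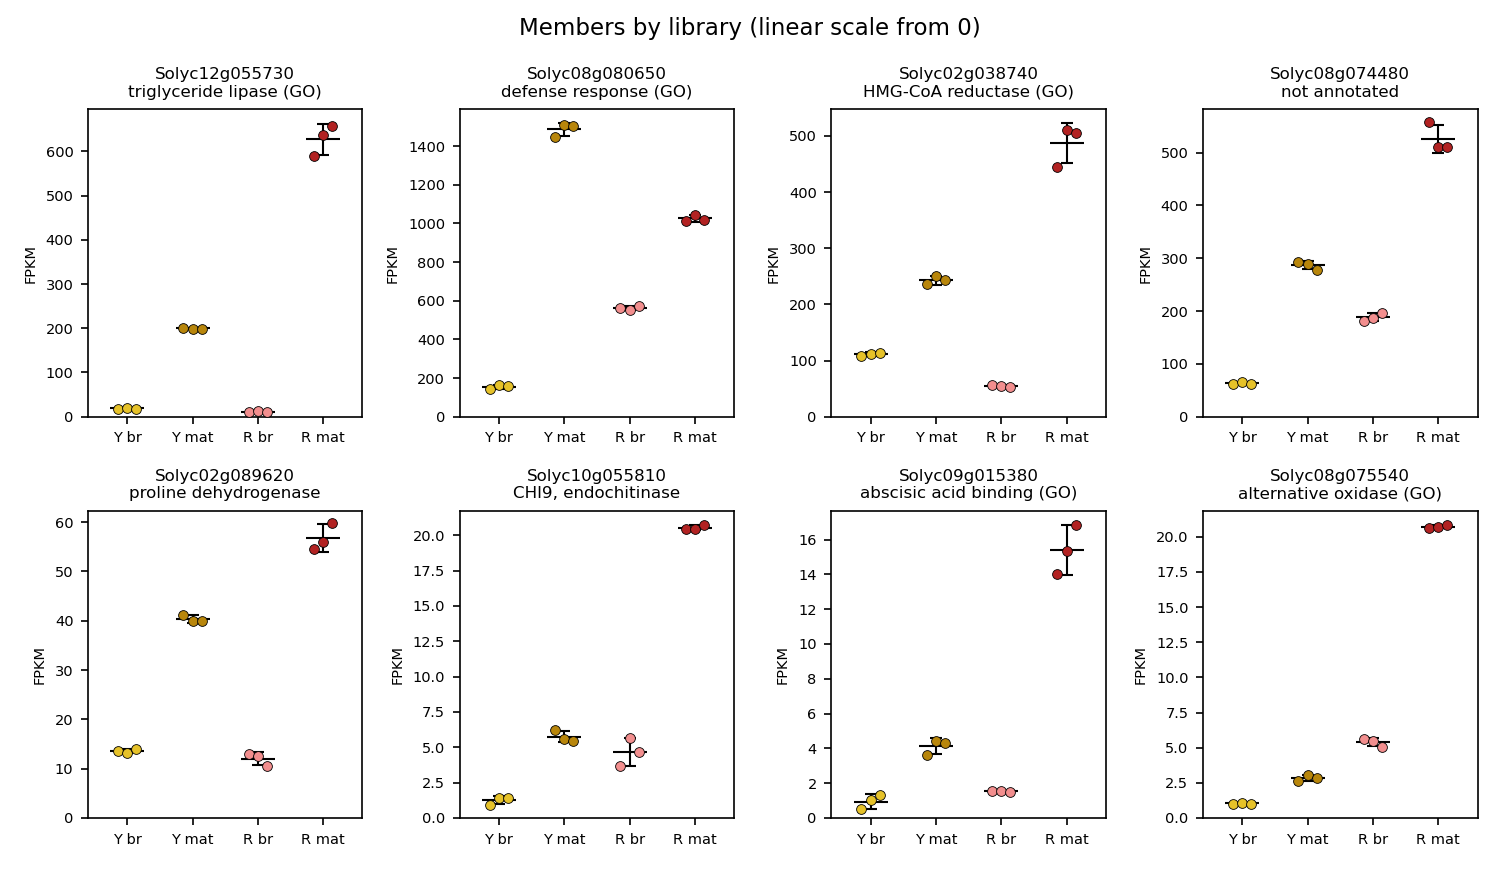
FPKM per library (points) with the group mean and SD (bars, n = 3) for 8 members, on linear axes from 0; Y is the yellow and R the red tomato, br is color break and mat is maturity. The lipase and reductase genes are higher in yellow at color break and higher in red at maturity, and the alternative oxidase gene is higher in red at both.

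Hormone, signaling and transcription genes were mostly of low level. Solyc09g015380, annotated as an abscisic acid binding receptor, a protein that blocks protein phosphatases when it holds the hormone, was at 0.507, 1 and 1.31 FPKM in yellow and 1.54, 1.57 and 1.51 in red fruit at color break, and at 3.63, 4.43 and 4.33 and 14, 15.3 and 16.8 at maturity. All 3 red libraries lay above all yellow ones at each stage. LAX1 (Solyc09g014380), an auxin influx carrier by its name, was higher at maturity by 1.13 in yellow and 1.25 in red, and Solyc03g121970, annotated for auxin signaling, by 0.81 and 1.24. The MAPKK gene Solyc03g097920, a kinase of a signaling cascade, was at 4.41 ± 0.331 and 7.85 ± 0.991 FPKM at color break and at 11.5 ± 0.794 and 20.8 ± 0.527 at maturity, in yellow and red. Among the genes of transcription, the homeobox gene Solyc02g081120, described as SHOOT MERISTEMLESS, which keeps shoot stem cells undifferentiated in Arabidopsis, was at 0.172 ± 0.0415 and 0.11 ± 0.0474 FPKM at color break and at 1.66 ± 0.223 and 3.1 ± 0.187 at maturity. The CCCH zinc finger gene Solyc08g065940 entered this group by its description, and its only GO term is metal ion binding. It stood higher, at 52.2, 53.1 and 53.8 FPKM in yellow and 51.2, 48.7 and 48.2 in red fruit at color break. At maturity it was at 99.1, 100.3 and 100.5 FPKM in yellow and 107, 113 and 113 in red. The subunit gene of a CCAAT-binding factor, Solyc04g054150, was higher at maturity by 1.03 and 1.21, and Solyc01g106700, annotated as a transcription factor, by 1.01 and 1.52. Solyc12g010410, annotated for DNA binding and regulation of transcription, was not caught by the words of the group. It was higher at maturity by 1.69 in yellow and 2.24 in red.

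Transporters included carriers for metals, ions and peptides. Solyc01g104780, annotated for iron and manganese transport, was at 2.9 ± 0.117 FPKM in yellow and 1.47 ± 0.531 in red fruit at color break and at 13.5 ± 1.65 and 18.1 ± 0.987 at maturity. The gene described as WALLS ARE THIN 1 (Solyc04g080940), a vacuolar auxin transporter in Arabidopsis, was at 0.823 ± 0.126 and 1.18 ± 0.298 FPKM at color break and at 3.9 ± 0.289 and 10.3 ± 1.09 at maturity. The potassium channel gene Solyc01g104030 was higher at maturity by 0.91 in yellow and 1.56 in red. Members with the GO term for ABC-type transporter activity numbered 3 of the 42 filtered genes with it (3% of the members, 0.263% of the filtered genes). This share was not tested.

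Glycosyl transfer held a gene with an on-and-off pattern between the stages. Solyc05g006140 (chromosome 5, 844646 to 845323, minus strand), annotated as a UDP-glycosyltransferase able to act on the flavonol quercetin, was at 0.0422, 0.0855 and 0.0613 FPKM in yellow and 0.19, 0.436 and 0 in red fruit at color break. At maturity it was at 14.5, 14.9 and 14 FPKM in yellow and 16.5, 18.6 and 18.9 in red. Its log2 fold change in the counts was 7.69 ± 0.43 (SE) in yellow and 6.18 ± 0.36 in red, and it rests on few reads at color break. Solyc05g009130 (0.82 in yellow, 1.87 in red) and Solyc07g043120 (0.88 and 1.38), both annotated for glycosyl transfer, had smaller differences. In protein turnover, the subtilisin-like protease gene Solyc01g111400 was at 15.3 ± 0.578 and 19.3 ± 0.291 FPKM at color break and at 29.9 ± 0.793 and 67.8 ± 4.62 at maturity. The aspartic endopeptidase genes Solyc11g011440 (0.94 and 2.73) and Solyc01g098710 (0.98 and 1.91) both had the larger difference in red. The sulfotransferase gene Solyc05g011890 was higher at maturity by 1.38 and 2.05. The kinase genes Solyc11g012050 (1.13 and 1.71) and Solyc04g081590 (0.87 and 1.34) and the spliceosome gene Solyc06g066010 (1.04 and 1.19) all had low levels.

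The GO term protein folding was carried by 128 filtered genes, of which 2 were members (1.56%, beside 0.626% of all filtered genes). This share was not tested. Solyc10g086680, annotated for protein folding and the response to heat, was at 0.118, 0 and 0.044 FPKM in yellow and 0.234, 0.097 and 0.284 in red fruit at color break. At maturity it was at 0.887, 1.19 and 1.05 FPKM in yellow and 10.6, 14.7 and 10.8 in red. Solyc04g011440, the other and the more abundant, annotated as a folding chaperone that uses ATP, was at 71.6, 74.1 and 73.5 FPKM in yellow and 69.8, 72.9 and 71.4 in red fruit at color break, and at 161, 164 and 169 and 121, 134 and 134 at maturity. Its yellow and red libraries overlapped at color break and not at maturity. Solyc11g066100, annotated as a chaperone of the heat response, was at 32.1 ± 0.61 and 45.5 ± 2.13 FPKM at color break and at 79.3 ± 1.91 and 81.3 ± 5.23 at maturity, in yellow and red. Of 19 genes past the filter with a heat shock word in their description none was a member, with 1 at a change of at least 0.8 and 3 at -0.8 or less in yellow, and 1 and 5 in red. Solyc10g086680, Solyc04g011440 and Solyc11g066100 have no description, so they could not enter that list.

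The GO term nucleosome was carried by 55 filtered genes, of which 6 were members (6% of the members, 0.344% of the filtered genes). This term and the one that follows were picked after the values were seen, so no test is given. Histones wrap DNA into nucleosomes, and most core histone transcripts are made when cells copy their DNA. The histone H2A gene Solyc01g099410 (chromosome 1, 89554995 to 89555629, minus strand) was at 61.8, 64 and 61.1 FPKM in yellow and 17.9, 17.1 and 15.7 in red fruit at color break, and at 130, 138 and 128 and 42.9, 32.7 and 30.8 at maturity. The histone H3 gene Solyc01g086820 was at 70.9, 75.6 and 64 FPKM in yellow and 27.5, 27.2 and 24.7 in red fruit at color break, and at 143, 138 and 131 and 54.2, 47.6 and 51.9 at maturity. Maturity was above color break by 2.09-fold in yellow and 1.88-fold in red for H2A and by 1.93-fold and 1.73-fold for H3, and yellow was above red at both stages. The histone H4 genes Solyc06g075960 (0.995 in yellow, 1.05 in red) and Solyc06g075930 (0.85 and 0.80) lie 4658 bases apart with 2 genes between. In red, Solyc06g075930 was at 17, 16.2 and 20.1 FPKM at color break and at 42.5, 25.5 and 29 at maturity. Its red change, at the limit, thus leans on replicate 1 at maturity. HIS1-3 (Solyc02g084240), named after an Arabidopsis linker histone that responds to water deficit, was at 240 ± 4.96 FPKM in yellow and 356 ± 3.49 in red fruit at color break and at 527 ± 12.4 and 849 ± 67 at maturity. Reads of similar histone genes could be shared within a family, and how such reads were counted is not given in the sources used here. Over all 55 nucleosome genes the median change was 0.27 in yellow and 0.41 in red, and 37 had a change above 0 in both.

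The GO term meristem maintenance was carried by 39 genes of the table and 10 filtered genes, of which 4 were members (4% of the members, 0.0626% of the filtered genes). Solyc06g035455 (chromosome 6, 24453604 to 24455038, minus strand) was at 25.4, 26.2 and 25.8 FPKM in yellow and 22.2, 22.6 and 20 in red fruit at color break, and at 115.8, 115.1 and 107.5 and 181.3, 163.2 and 182.4 at maturity. Solyc08g066365 was at 7.57, 5.99 and 6.42 FPKM in yellow and 4.91, 4.46 and 4.54 in red fruit at color break, and at 39.6, 37 and 38.2 and 74.3, 60.9 and 66.4 at maturity. Solyc05g015658 (2.21 in yellow, 3.07 in red) and Solyc11g056637 (1.77 and 2.21) were the others. The summed level of the 4 genes was 39.6 to 41.6 FPKM in yellow and 32.7 to 34.3 in red fruit at color break, and 186 to 197 and 290 to 325 at maturity. The table gives these genes no description. The other 6 filtered genes with the term had changes of -0.08 to 0.50 in yellow and 0.02 to 0.89 in red.

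**Figure D3:**
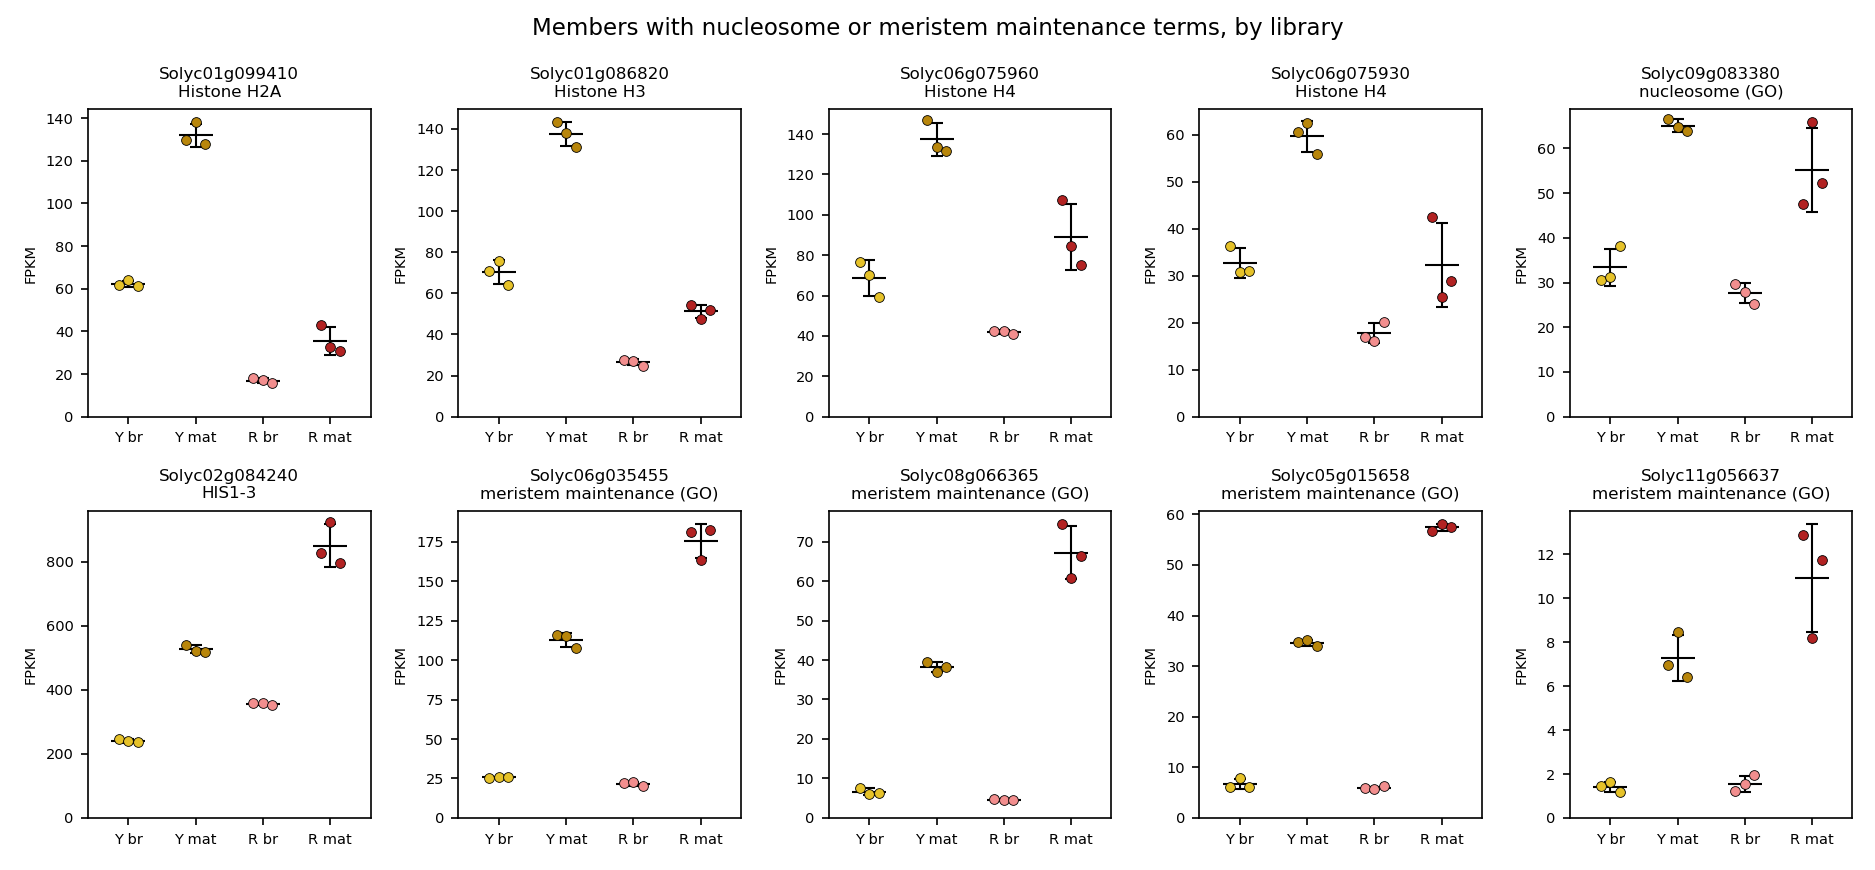
FPKM per library (points) with the group mean and SD (bars, n = 3) for the 6 members with a nucleosome term and the 4 with a meristem maintenance term, on linear axes from 0; labels as in the plot of leading members. The 4 core histone genes are higher in yellow at both stages, and the means of the meristem maintenance genes are highest in red at maturity.

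Some of the most abundant members have little or no annotation. Solyc08g074480 (chromosome 8, 58702881 to 58703276, plus strand), with neither description nor GO term, was at 62, 66.3 and 62 FPKM in yellow and 182, 187 and 197 in red fruit at color break, and at 292, 290 and 278 and 557, 512 and 511 at maturity. Solyc02g063420, annotated only as a membrane protein, was at 130, 136 and 127 FPKM in yellow and 126, 124 and 128 in red fruit at color break, and at 363, 358 and 354 and 370, 288 and 282 at maturity, and its yellow and red libraries overlapped at both stages. As genes in the table, the members were short: their median span from start to end was 1560 bases, against 4639 over all filtered genes, 2190 over the 484 genes with a change of -0.8 or less in both tomatoes, and 2479 and 2909 over the other genes that reached the rise in yellow or in red. A span under 1000 bases was found in 31 of the 100 members and in 10.1% of filtered genes. Members lay on all 12 chromosomes, from 0.292% of the filtered genes of chromosome 10 to 0.853% of those of chromosome 1. Solyc11g066060 and Solyc11g066070 on chromosome 11 overlap on opposite strands. Solyc11g066060 (52034861 to 52037681) was higher at maturity by 1.87 in yellow and 3.05 in red, and the mitochondrial ribosomal gene Solyc11g066070 (52034448 to 52038669) by 0.86 and 1.47. Whether the counting used strand is not given in the sources used here, so reads of the 2 genes may not be separated. In all, 10 members overlap another gene of the table, the histone H2A and MAPKK genes among them.

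In 4 members replicates of a group differed between 0 and many counts. In Solyc03g116465, Solyc12g017264, Solyc01g089907 and Solyc06g076257 a library with 0 counts stood in the same group as one with at least 50, a pattern found in 0.795% of the filtered genes. Solyc03g116465 held 0, 0 and 185 counts in yellow and 0, 0 and 0 in red fruit at color break, and 0, 181 and 116 and 0, 186 and 175 at maturity. Solyc06g076257 held 75, 0 and 0 counts in yellow and 0, 65 and 0 in red fruit at color break, and 95, 140 and 91 and 197, 215 and 237 at maturity. Most color break libraries of both genes were thus at 0. Solyc12g017264 held 0, 149 and 212 counts in yellow and 195, 0 and 143 in red fruit at color break, and 242, 256 and 240 and 263, 259 and 268 at maturity. Solyc01g089907 held 174, 0 and 113 counts in yellow and 135, 160 and 0 in red fruit at color break, and 152, 134 and 125 and 119, 121 and 189 at maturity. In Solyc01g089907 the color break libraries above 0 overlapped those at maturity, and in Solyc12g017264 they lay below them. Without the 4 genes 96 members are left. The maturity and color break libraries overlapped in Solyc03g116465 and Solyc01g089907 in both tomatoes, and in no other member. The rule that chose the members favors such a separation, so it is no support for the rise.

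The tomatoes were then compared in these genes over both stages together. The mean difference, red minus yellow, was not itself used to choose the genes, but it is not free of the choice: the pseudocount and the filter make a gene at a higher level in a tomato more likely to pass there. It was tested with edgeR's quasi-likelihood test over all 15974 genes, and a call needed both an adjusted p (Benjamini-Hochberg) below 0.05 and a log2 fold change of at least 1 in size. Of the 100 members, 8 were called higher in red, beside 2.32% of all genes tested, and 2 lower in red, beside 3.89%, so that 10 were called either way, beside 6.2%. A further 58 passed the adjusted p with a smaller difference. Counted without the minimum difference, 53 members were higher in red, beside 26.1% of all genes, and 15 lower, beside 27.9%. The median difference was 0.32 over the members and 0.00 over all genes, and 69 of the members had a value above 0. The mean difference also takes in the larger rise of most members in red. At color break 52 members were higher in red, beside 50.1% of filtered genes. At maturity 81 were, beside 63.1%, so the excess lay mainly at maturity and is not apart from the stage changes.

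The alternative oxidase gene Solyc08g075540 was 5.84-fold higher in red (log2 fold change 2.55 ± 0.05 SE, edgeR adjusted p = 6.52e-14), with 6 of 6 red libraries above the yellow ones of the same stage. The heat response gene Solyc10g086680 stood at 2.54 ± 0.33, but it reached 1 FPKM in 3 libraries only through red at maturity, the group where it was high, so its call is no evidence of a difference, and 7 calls are left without it. CHI9 was 3.46-fold higher (1.79 ± 0.11, edgeR adjusted p = 1.25e-08) and the potassium channel gene Solyc01g104030 2.72-fold higher (1.44 ± 0.06, edgeR adjusted p = 2.31e-10). The potassium channel gene was at 2.91, 3.16 and 2.76 FPKM in yellow and 6.27, 7.08 and 7.3 in red fruit at color break, and at 6.24, 6.77 and 6.23 and 19.2, 24 and 23.7 at maturity. The abscisic acid receptor gene Solyc09g015380 was 2.35-fold higher (1.23 ± 0.16, edgeR adjusted p = 1.91e-05) and the unannotated Solyc08g074480 2.23-fold higher (1.16 ± 0.04, edgeR adjusted p = 1.59e-11). The other calls were Solyc02g080510 (1.12 ± 0.06), which has no annotation and is named here only to complete the 8, and the kinase gene Solyc04g081590 (1.01 ± 0.09). The kinase gene lay at the minimum difference and lost its call when any of 5 single libraries was left out (0.96 to 0.99) and with limma on log2(FPKM + 1) (0.89).

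Both members lower in red were histone genes. H2A (Solyc01g099410) was 3.88-fold lower (log2 fold change -1.95 ± 0.07 SE, edgeR adjusted p = 6.67e-11) and H3 (Solyc01g086820) 2.8-fold lower (-1.48 ± 0.05, edgeR adjusted p = 3.8e-11). The H4 genes stood at -0.95 ± 0.12 (Solyc06g075930) and -0.74 ± 0.09 (Solyc06g075960), under the minimum difference, and Solyc06g075930 was called at -1.08 without replicate 1 of red at maturity and at -1.004 without replicate 3 of red at color break. HIS1-3 went the other way at 0.56 ± 0.03 and was not called. Lower values in red were not limited to members, seen here as values without a test. The histone H4 gene Solyc04g011390, not a member, was at 82 FPKM in yellow and 32.2 in red at color break. At maturity it was at 115 and 46.6. Other histone genes differed less, as H2A Solyc12g005270, also not a member, at 124 and 122 FPKM, then 128 and 108. Among the members with the largest stage changes, the lipase gene Solyc12g055730 (0.40 ± 0.04), the glycosyltransferase gene Solyc05g006140 (0.93 ± 0.40), Solyc08g066365 (0.08 ± 0.07) and Solyc03g079880 (0.85 ± 0.62) were not called. Solyc03g079880 was called (3.02) when the single yellow library above 0 at color break, replicate 2, was left out, and Solyc05g006140 without replicate 3 of red at color break (1.19). The glutamine synthetase gene Solyc04g014510 was just short of a call at 0.99 ± 0.06, and the sulfotransferase gene Solyc05g011890 stood at 0.92 ± 0.15 and was called without replicate 3 of yellow at color break (1.06).

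**Figure D4:**
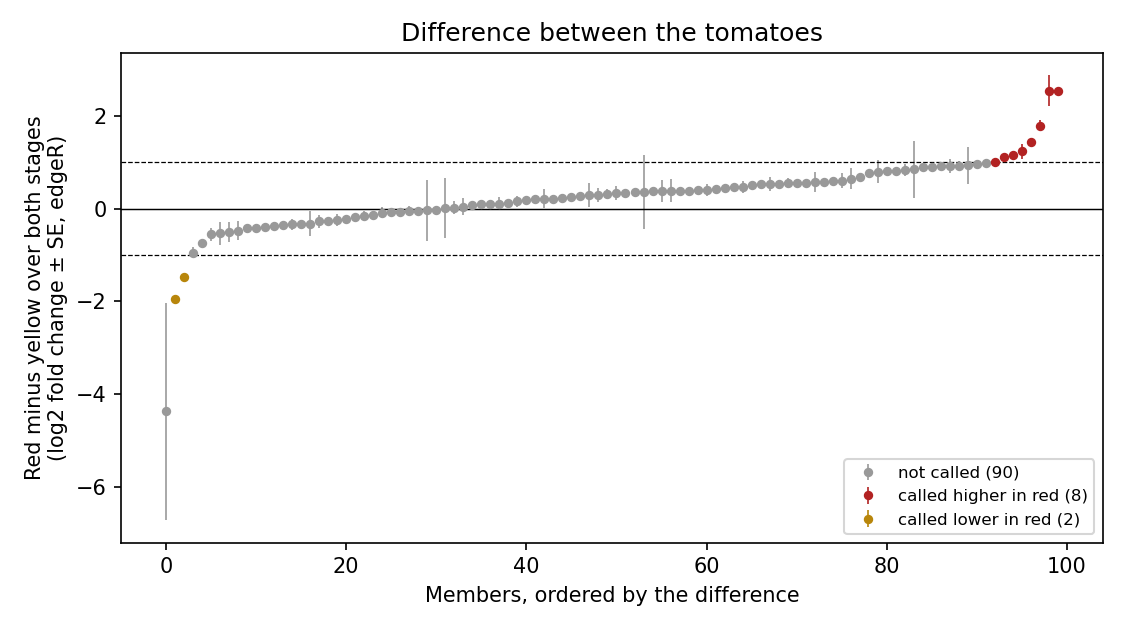
Difference between the tomatoes over both stages (log2 fold change, red minus yellow, edgeR, points with SE bars) for the 100 members in order of size; dashed lines mark the minimum difference of a call. The 8 members called higher in red are shown in red and the 2 called lower, both histone genes, in ochre; the widest bar belongs to Solyc03g116465, which is at 0 counts in several libraries.

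Seen by stage, as values without a test, 52 members were higher in red at color break, beside 50.1% of all filtered genes, and 81 at maturity, beside 63.1%. The median of red minus yellow on the log2(FPKM + 1) scale was 0.04 at color break and 0.52 at maturity over the members, and 0.00 and 0.12 over all filtered genes. In 51 members red was higher at both stages (33.3% of filtered genes) and in 18 it was lower at both (20.02%). In 30 members red was lower at color break and higher at maturity (29.8%), as in the lipase and reductase genes. In 1 member, the defence gene Solyc08g080650, red was higher at color break and lower at maturity (16.8%).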

How the data were processed

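Messenger RNA of 12 fruit libraries was analysed from 1 table of the series. Per the submitters' processing notes, the tools named are HISAT2 2.2.1, StringTie 2.1.6 and cutadapt 1.9, along with edgeR and DESeq2; build, annotation and settings: not given in the sources used here. Per the labels' protocols, mRNA was captured on oligo(dT) and libraries were strand-marked with dUTP. The authors deposited FPKM values and whole-number counts per gene and library; coordinates are as in the table. The members and lists were chosen with earlier results of these data known. Stage changes used the deposited FPKM as log2(FPKM + 1), which understates changes of low genes. The difference between tomatoes used the deposited counts with edgeR 4.0.16 (R 4.3.3, TMM, quasi-likelihood, a mean per group, Benjamini-Hochberg over 15974 genes); SE is the log2 fold change over the root of F. The fit was tested on simulated data. Alternatives used DESeq2 1.42.0, limma 3.58.1, other scalings, filters and pseudocounts, a replicate block, and fits without 1 library. Named members were the 10 described genes with the largest mean change and at least 5 FPKM at maturity, the 3 largest of any annotation, the 6 highest at maturity, the 5 largest called differences per direction, up to 3 per annotation group and the 2 nearest the limit on each side; other genes were named after their values were seen. Precision is limited by 3 libraries per group.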

Additional observations from a re-analysis of the deposited data

How the results depend on the processing

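The number of genes that reached the rise in both tomatoes depends on the measure of change. Against 100 genes, a pseudocount of 0.1 gave 210 (all 100 members among them), a pseudocount of 5 gave 36, edgeR's log2 fold change of the counts gave 196 (91 members among them), and a limit of 1 gave 58. The cause was not tested. FPKM divided by TMM factors (89), FPKM rescaled to a fixed total (105), no filter (101) and 1 FPKM in 6 libraries (98) stayed within 1.5 times, as did leaving out any single library (99 to 113), and leaving out the 4 genes at 0 in some libraries of a group (96, chosen after seeing the data). The members called higher in red were 8, and 7 to 10 without 1 library; the members called lower were 2, and 2 to 3. Without a minimum difference the counts were 53 and 15. No shared effect of the replicate numbers was seen (18 of 18 correlations of deviations at or under 0.1, from -0.09 to 0.08). These correlations cannot show how the samples were taken. With a replicate block 8 members were higher and 2 lower. Of 731 values of named members under the alternatives, 711 kept direction and call, 6 lost a call, 9 gained one and 5 changed sign, all of these in genes not called: Solyc02g081120 (0.04) at -0.03 without replicate 2 of yellow at color break, -0.01 without replicate 3 of yellow at maturity and -0.16 without replicate 1 of red at color break (up to 0.14 without another library), and, with limma on log2(FPKM + 1), Solyc11g066070 at 0.011 and Solyc06g066010 at 0.0037; the cause was not tested. Low counts at color break limit the fold changes of members under 1 FPKM there (25 in yellow, 17 in red).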
